A study of Danio rerio with 12 samples.

Results

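The genes described are casp8, casp9, apaf1, endog and dffa of zebrafish, which encode 2 initiator caspases, the scaffold that activates the second of them, a mitochondrial nuclease and the inhibitor of a caspase-activated nuclease. They were chosen by name, as 5 of the 15265 rows of the deposited count table, and all 5 were among the 11866 genes tested. RNA came from whole embryos at 28 hours post fertilisation (hpf), in pools of 30 to 50 embryos per library. The 4 groups of 3 libraries were miR-34a-/- embryos given 1 µM camptothecin (CPT), miR-34a-/- embryos given DMSO, wild-type embryos given 1 µM CPT and wild-type embryos given DMSO, each exposed for 4 h from 24 hpf. No allele, clone or strain beyond these genotype names is given in the labels. The DMSO controls are labelled 0.005% DMSO, whereas a 2000-fold dilution of the labelled 2 mM stock would bring 0.05% DMSO into the CPT water, so effects of CPT and of added DMSO cannot be told apart. Nothing in the labels says that the 3 libraries of a group came from separate clutches. All p-values therefore rest on the variation among pools, some of which may be technical.

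Caspases are proteases that are made as inactive precursors and cut cellular proteins during apoptosis. Caspase-8 is activated at death receptors of the cell surface. Caspase-9 is activated on the apoptosome, which Apaf1 assembles when cytochrome c leaves the mitochondria. Both initiators then cut executioner caspases. Dffa (ICAD) holds the nuclease Dffb (CAD) inactive until an executioner caspase cleaves it, and endonuclease G, the product of endog, leaves the mitochondria and can degrade DNA without caspases. CPT traps topoisomerase I on DNA and so breaks DNA, and in mammals the miR-34a gene is a transcriptional target of p53, which is itself activated by such breaks. These activation steps act on protein and are not read by mRNA levels.

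The libraries held 13.5 to 27.9 M counts. Normalised levels below are CPM (counts scaled to a common library size) computed with TMM factors, which were 0.835 to 0.962 in the wild-type CPT libraries and 1.01 to 1.09 in the other 9. The row of the mutated gene, mir34, had 0 counts in all 3 mutant CPT and all 3 mutant DMSO libraries, against 9, 9 and 32 counts in wild-type CPT and 0, 1 and 0 in wild-type DMSO libraries. With DMSO the row was thus at or near 0 in both genotypes, so it checks the genotype names of the CPT libraries only. The p53 target bbc3 (Puma) averaged 197 ± 13 CPM in mutant CPT and 2.85 ± 0.18 CPM in mutant DMSO embryos, and 185 ± 17 CPM in wild-type CPT and 3.90 ± 0.42 CPM in wild-type DMSO embryos (SD, n = 3 each). The gene gata1a, a regulator of red cell formation, was listed at 0 in all libraries, although the 8 erythroid markers summed to 80.9 to 354 CPM. A row at or near 0 in this table therefore does not show that a gene was silent.

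With CPT, 3 of the 5 genes were called in each genotype, but not the same 3. The difference of the CPT effects between genotypes was called for 0 of the 5. A call in 1 genotype alone therefore does not show that the genotypes differed. The initiator caspase gene casp8 rose 16.6-fold in mutants and 10.3-fold in wild-type embryos, and the nuclease gene endog rose 1.47-fold and 2.01-fold. The apoptosome scaffold apaf1 fell in mutants and the apoptosome caspase casp9 fell in wild-type embryos, while dffa was not called in either. The casp9 estimate was negative in mutants too (log2 fold change -0.33, not called). These counts stand against a broad response: in mutants 60.2% of the 11866 tested genes were called (28.5% higher, 31.7% lower), and in wild-type embryos 60.8% (29.1% higher, 31.8% lower). A share of 3 in 5 is thus near the background. The median log2 fold change of the 5 genes was 0.22 in mutants, against -0.0064 over all tested genes, and 0.16 in wild-type embryos, against -0.0025 over all tested genes. Called means an adjusted p (Benjamini-Hochberg, over all tested genes) under 0.05 in edgeR's quasi-likelihood test, the source of each adjusted p unless another tool is named.

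**Figure D1:**
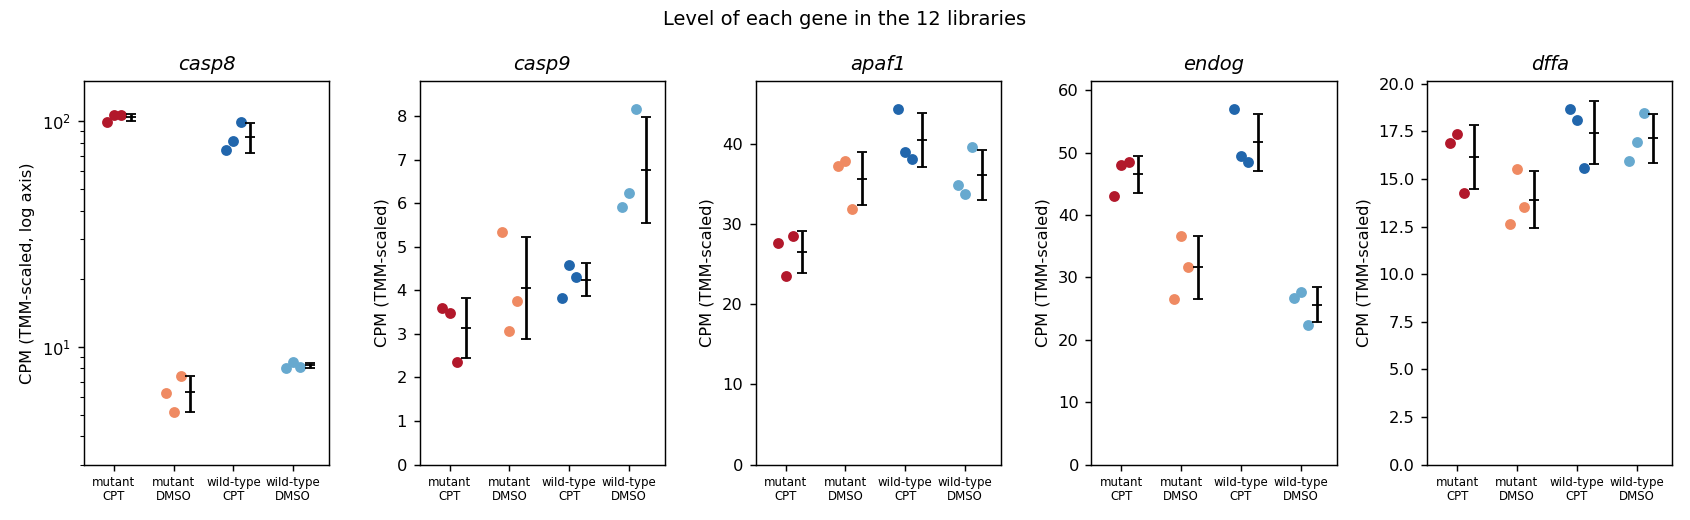
Level of casp8, casp9, apaf1, endog and dffa (CPM, TMM-scaled) in the 12 libraries; each point is 1 library, and the bar beside the points is the mean ± SD of 3. The casp8 axis is logarithmic, and casp8 lies between 74.4 and 106 CPM in the CPT libraries and between 5.12 and 8.52 CPM in the DMSO libraries.

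The initiator of the death receptor route, casp8, had 98.9, 106 and 106 CPM in the mutant CPT libraries, against 6.25, 5.12 and 7.41 CPM in the mutant DMSO libraries. In wild-type embryos casp8 had 74.4, 81.2 and 98.8 CPM with CPT, against 8.07, 8.52 and 8.15 CPM with DMSO. No CPT library came near a DMSO library in either genotype. The log2 fold change was 4.05 ± 0.14 (SE) in mutants, with an adjusted p of 1.11e-14, and 3.36 ± 0.13 in wild-type embryos, with an adjusted p of 9.41e-14. By p-value casp8 ranked 6 among all tested genes in mutants and 11 in wild-type embryos. Its counts ran from 1261 to 2655 in CPT libraries and from 102 to 193 in DMSO libraries, so counting error was small beside the change.

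The order of the casp8 group means was mutant CPT (104 ± 4.1 CPM), wild-type CPT (84.8 ± 12.6 CPM), wild-type DMSO (8.25 ± 0.24 CPM) and mutant DMSO (6.26 ± 1.14 CPM; SD, n = 3 each). The mutants were thus at both ends of the order. The genotypes did not overlap in either treatment, but with CPT the gap was narrow: the lowest mutant library stood at 98.9 CPM and the highest wild-type library at 98.8 CPM. How many of all tested genes showed no overlap was not counted, so non-overlap is a description only, here and below. The log2 difference of mutants from wild-type embryos was 0.29 ± 0.12 with CPT (adjusted p = 0.184) and -0.40 ± 0.14 with DMSO (adjusted p = 0.25), and neither was called.

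The apoptosome caspase casp9 had the fewest counts of the 5 genes, 32 to 192 counts per library. It had 3.59, 3.48 and 2.35 CPM in mutant CPT libraries, against 5.33, 3.06 and 3.75 CPM in mutant DMSO libraries. The mutant groups overlapped, and the log2 fold change was -0.33 ± 0.24 (adjusted p = 0.232; 95% interval -0.83 to 0.16). Wild-type embryos had 3.84, 4.58 and 4.32 CPM with CPT, against 5.91, 6.22 and 8.15 CPM with DMSO. All 3 wild-type CPT libraries were below all 3 wild-type DMSO libraries, and casp9 fell by 0.67 ± 0.22 on the log2 scale (adjusted p = 0.0113). That call rested on wild-type DMSO library 3: without it the log2 fold change was -0.51 and the adjusted p 0.0792. The exact 95% Poisson interval of the lowest count, 32, was 21.9 to 45.2, which covers counting error only.

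The scaffold apaf1 had 27.6, 23.6 and 28.5 CPM in mutant CPT libraries, against 37.3, 37.8 and 31.8 CPM in mutant DMSO libraries. In wild-type embryos apaf1 had 44.3, 39.0 and 38.1 CPM with CPT, against 34.9, 33.8 and 39.6 CPM with DMSO. The 3 mutant CPT libraries were the lowest of all 12. The wild-type CPT and DMSO libraries overlapped. In mutants apaf1 fell by 0.43 ± 0.12 on the log2 scale (adjusted p = 0.00381), which is a level 1.34-fold lower with CPT than with DMSO. In wild-type embryos the log2 fold change was 0.16 ± 0.11 (adjusted p = 0.226; 95% interval -0.07 to 0.40), and it was -0.07 when libraries were scaled by their totals alone.

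The nuclease gene endog had 43.1, 48.0 and 48.5 CPM in mutant CPT libraries, against 26.5, 36.6 and 31.8 CPM in mutant DMSO libraries. In wild-type embryos endog had 56.9, 49.5 and 48.6 CPM with CPT, against 26.7, 27.7 and 22.5 CPM with DMSO. All CPT libraries were above all DMSO libraries, whichever the genotype. The log2 fold change was 0.55 ± 0.12 in mutants (adjusted p = 0.000719) and 1.01 ± 0.12 in wild-type embryos (adjusted p = 6.99e-07). With CPT the mean was 46.5 ± 3.0 CPM in mutants and 51.7 ± 4.6 CPM in wild-type embryos, and with DMSO it was 31.6 ± 5.1 CPM in mutants and 25.6 ± 2.8 CPM in wild-type embryos (SD, n = 3 each).

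The nuclease inhibitor dffa had 16.9, 17.4 and 14.2 CPM in mutant CPT libraries, against 12.6, 15.5 and 13.5 CPM in mutant DMSO libraries. In wild-type embryos dffa had 18.6, 18.1 and 15.6 CPM with CPT, against 15.9, 16.9 and 18.5 CPM with DMSO. The CPT and DMSO libraries overlapped in both genotypes. The log2 fold change was 0.22 ± 0.14 in mutants (adjusted p = 0.178; 95% interval -0.07 to 0.50) and 0.02 ± 0.13 in wild-type embryos (adjusted p = 0.895; 95% interval -0.26 to 0.30). These intervals leave room for a rise of up to 1.42-fold in mutants and 1.23-fold in wild-type embryos. Its partner dffb, the nuclease that Dffa restrains, was singled out for that role after its values were seen: its log2 fold change was -0.12 in mutants and -0.11 in wild-type embryos, not called.

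**Figure D2:**
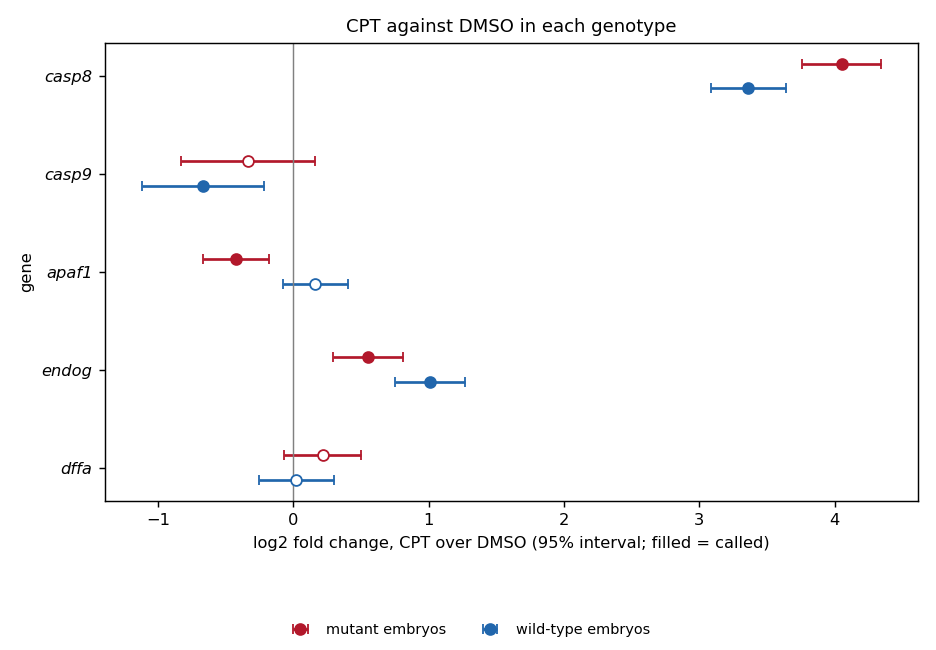
Log2 fold change of CPT over DMSO with its 95% interval for each gene, in mutants (red) and wild-type embryos (blue); filled points were called. casp8 stands at 4.05 and 3.36, endog at 0.55 and 1.01, and the other 3 genes lie between -0.67 and 0.22.

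Mutant and wild-type embryos were compared within each treatment. The labels give no strain or clutch beyond the genotype names, so effects of the mutation and of line or clutch cannot be told apart. With CPT, apaf1 was the only one of the 5 genes called, lower in mutants, against a background of 3.29% of tested genes called (1.13% higher, 2.16% lower). Mean apaf1 was 26.5 ± 2.6 CPM in mutant CPT and 40.4 ± 3.3 CPM in wild-type CPT embryos (SD, n = 3 each), a log2 difference of -0.61 ± 0.12 (adjusted p = 0.0089), so that mutants were 1.52-fold lower. All 3 mutant libraries were below all 3 wild-type libraries. The call held in 20 of 21 alternative analyses, with adjusted p between 0.000202 and 0.0621, and was lost without mutant CPT library 2 (log2 difference -0.53, adjusted p = 0.0621). With CPT, casp9 was at -0.42 ± 0.23 (adjusted p = 0.339), endog at -0.15 ± 0.12 (adjusted p = 0.541) and dffa at -0.10 ± 0.14 (adjusted p = 0.734). Mutant and wild-type libraries did not overlap for casp9 or endog, although for endog the gap lay between 48.5 CPM in the highest mutant and 48.6 CPM in the lowest wild-type library. The share of all tested genes whose libraries did not overlap was not counted for any contrast. Non-overlap is therefore given as a description and does not set these genes apart from others. With library totals, which moved the median log2 difference of all tested genes to 0.20, apaf1 was at -0.41 and was called, and casp8 was called too, at 0.47. casp8 was also called without wild-type CPT library 3, at 0.40 (adjusted p = 0.0321). Both settings called more genes: 1195 of 11866 with library totals, and 1045 of 11983 without wild-type CPT library 3.

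With DMSO, 0 of the 5 genes were called in mutants against wild-type embryos, where 0.598% of tested genes were called (0.194% higher, 0.405% lower). At an unadjusted p under 0.05, 4 of the 5 passed in edgeR, against 11.8% of tested genes, and DESeq2 and limma-voom also called 0. Their log2 differences were -0.76 ± 0.22 for casp9, -0.40 ± 0.14 for casp8, -0.30 ± 0.13 for dffa and 0.31 ± 0.13 for endog. The casp9 libraries had 3.06 to 5.33 CPM in mutants and 5.91 to 8.15 CPM in wild-type embryos and did not overlap, but the adjusted p was 0.142. apaf1 was at -0.02 ± 0.11 (95% interval -0.26 to 0.22), and its libraries overlapped.

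Whether the CPT effect itself differed between genotypes was tested as the interaction, which called 0 of the 5 genes and 0.16% of tested genes (0.0253% higher, 0.135% lower). At an unadjusted p under 0.05, 3 of the 5 passed in edgeR, against 15.1% of tested genes. The casp8 rise was larger in mutants by 0.69 ± 0.19 on the log2 scale (adjusted p = 0.0945), or 1.61-fold. The CPT effect on apaf1 was lower in mutants by a log2 difference of -0.59 ± 0.16 (adjusted p = 0.103), and that on endog by -0.46 ± 0.18 (adjusted p = 0.214). For casp9, called in wild-type embryos and not in mutants, the difference of the CPT effects was 0.33 ± 0.32 (adjusted p = 0.664; 95% interval -0.34 to 1.00), and for dffa it was 0.20 ± 0.19 (adjusted p = 0.668). DESeq2 called casp8 (adjusted p = 0.0228) and apaf1 (adjusted p = 0.0245), but it called 343 of the 6047 genes to which it gave an adjusted p. limma-voom called 0 of the 5 genes. Without wild-type CPT library 3, edgeR called casp8 (adjusted p = 0.016) and apaf1 (adjusted p = 0.0344), in a fit that called 504 of 11983 tested genes. Over 20 alternatives the adjusted p ran from 0.016 to 0.294 for casp8 and from 0.0245 to 0.278 for apaf1. A difference of the CPT effect between genotypes was therefore not established for either gene by the edgeR test.

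**Figure D3:**
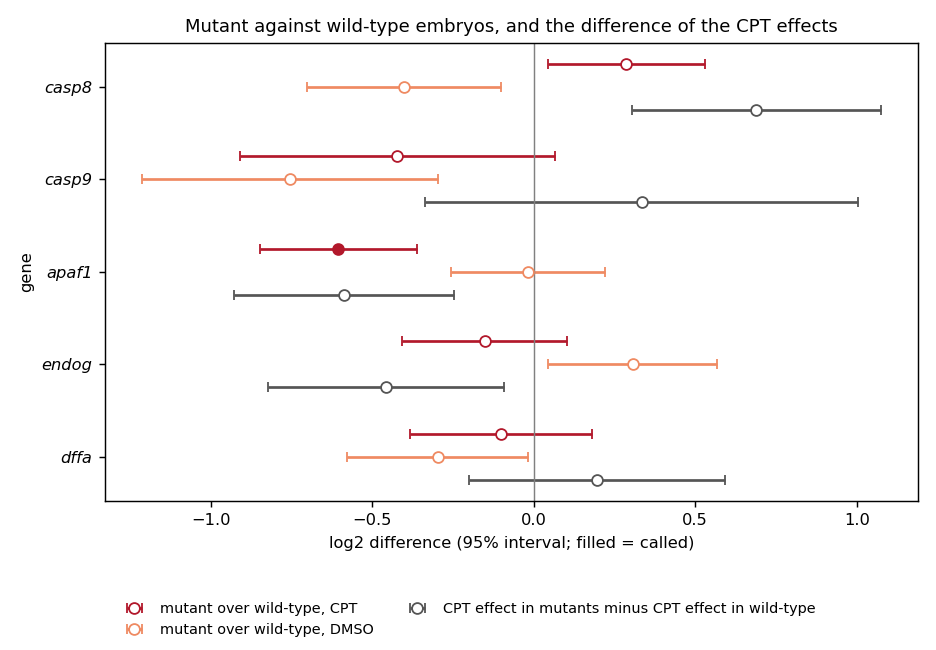
Log2 difference of mutants from wild-type embryos with CPT (red) and with DMSO (orange), and the CPT effect in mutants minus that in wild-type embryos (grey), with 95% intervals; filled points were called. The single filled point is apaf1 with CPT, at -0.61.

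The summed level of skeletal muscle markers was lowest in the mutant CPT libraries, where apaf1 was lowest too, but single markers differed. The neuronal and neural progenitor sums were also lowest there, without overlap, so a lowest sum was not particular to muscle. The sums of the other marker lists were not lowest there. The progenitor gap was narrow, from 531 CPM in mutant CPT to 532 CPM in wild-type CPT libraries. Single neural markers went both ways against wild-type CPT embryos, where 3.29% of tested genes were called. Of 7 progenitor markers, sox3 was called lower (-0.42) and msi1 higher (0.39) in mutants (log2). Of 8 neuronal markers 0 were called. Neuronal markers summed to 401 to 479 CPM in mutant CPT and 598 to 671 CPM in mutant DMSO libraries. In wild-type libraries the neuronal sum was 484 to 541 CPM with CPT and 605 to 628 CPM with DMSO. The 7 muscle markers in the table summed to 8346 to 9960 CPM in mutant CPT, 13091 to 16012 CPM in mutant DMSO, 12362 to 16163 CPM in wild-type CPT and 13206 to 14582 CPM in wild-type DMSO libraries, with none of the 7 at 0 in any group. Of this sum, actc1b alone made up 66.0% to 68.5% in mutant CPT, 56.9% to 61.5% in mutant DMSO, 70.4% to 72.1% in wild-type CPT and 53.9% to 61.3% in wild-type DMSO libraries. Without actc1b, the other 6 summed to 2737 to 3383 CPM in mutant CPT, 5636 to 6552 CPM in mutant DMSO, 3533 to 4788 CPM in wild-type CPT and 5448 to 6088 CPM in wild-type DMSO libraries. The 6-gene sum was thus lower with CPT in both genotypes, unlike apaf1, and still lowest in mutant CPT libraries. In mutants 5 of the 7 fell with CPT, while the muscle regulators myog (1.54) and myod1 (0.77) rose (log2). In wild-type embryos the structural genes acta1b (-0.65) and tnnt3a (-0.70) fell, and actc1b (0.37) and myog (0.99) rose. Against wild-type CPT embryos, actc1b and acta1b were lower in mutant CPT embryos and 0 of the 7 were higher. By Pearson's r over the 12 libraries, 2 of the 3 genes most like apaf1 were muscle genes: cardiac-type actin actc1b (r = 0.93, itself in the muscle list) and muscle creatine kinase ckmb (r = 0.90), beside the amino acid transporter slc7a5 (r = 0.92). These genes were picked for their likeness over the same libraries, so their genotype differences are no separate evidence. The part of muscle or neural RNA in the apaf1 result was not tested. In RNA of whole embryos, fewer cells of a type and less RNA per cell cannot be told apart.

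**Figure D4:**
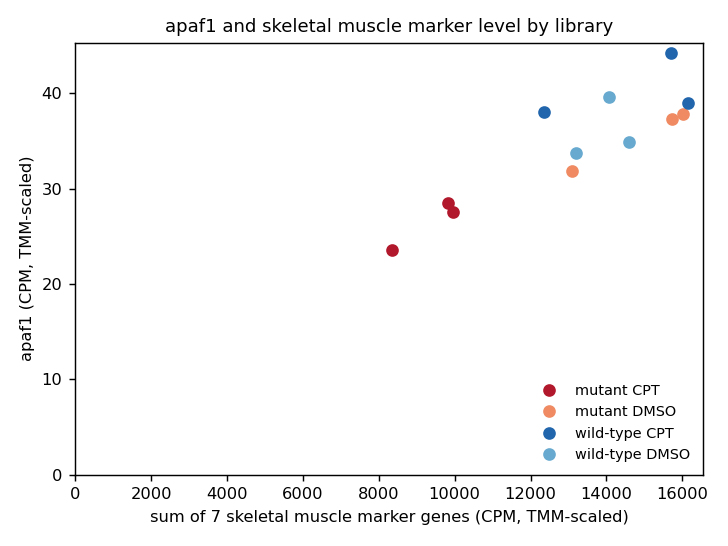
Level of apaf1 against the sum of 7 skeletal muscle marker genes (both in CPM, TMM-scaled), 1 point per library. The 3 mutant CPT libraries lie apart at 23.6 to 28.5 CPM of apaf1 and 8346 to 9960 CPM of muscle markers, a sum of which actc1b is 53.9% to 72.1%.

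Other tissue markers also changed with CPT. Of all tested genes, 31.7% were called lower and 28.5% higher in mutants, and 31.8% lower and 29.1% higher in wild-type embryos. These shares are also the background of the muscle marker counts above. The lists are short and were not tested against these shares. Of neural progenitor markers, 7 of 7 fell in mutants and 7 of 7 in wild-type embryos, and their sum was 500 to 531 CPM in mutant CPT and 1058 to 1134 CPM in mutant DMSO, and 532 to 637 CPM in wild-type CPT and 1002 to 1026 CPM in wild-type DMSO libraries. Of endothelial markers 6 of 7 tested fell in both genotypes, and 1 rose in mutants. Erythroid markers fell in 5 of 6 in both. Of neuronal markers 5 of 8 fell in mutants, and 4 fell and 1 rose of 8 in wild-type embryos. Myeloid markers fell in 5 of 6 in mutants and 4 of 6 in wild-type embryos. Summed levels of endothelial markers were 66.8 to 75.1 CPM in mutant CPT and 190 to 204 CPM in mutant DMSO, and 58.8 to 67.5 CPM in wild-type CPT and 184 to 193 CPM in wild-type DMSO libraries. Epidermal markers rose in 1 and fell in 2 of 6 in mutants, and rose in 4 and fell in 1 of 6 in wild-type embryos. The part of tissue composition in the changes of casp8, casp9 and endog was not tested.

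The genes most like the other members differed from one member to the next. For casp8 they were ifit8, snx11 and the DNA damage-inducible gadd45aa, each with r of 0.997 to 0.998 over the 12 libraries, a value set mainly by the gap between CPT and DMSO. For endog they were trmt10c, which encodes a subunit of mitochondrial RNase P (r = 0.99), and esf1 (r = 0.99) and thumpd1 (r = 0.98). Like endog, all 3 of these were called higher with CPT in both genotypes, by 0.47 to 0.55 on the log2 scale in mutants and by 0.86 to 1.04 in wild-type embryos. They were picked for likeness to endog over the same libraries, so the shared rise is no separate evidence. Of all tested genes, 28.5% were called higher in mutants and 29.1% in wild-type embryos. The highest r was lower for casp9 (atg13, pdk4 and ubald2, 0.88 to 0.91) and for dffa (fabp1b.1, enpp2 and ndufc2, 0.88 to 0.90).

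Among themselves the 5 genes did not follow 1 pattern. Over the 12 libraries r was 0.87 between casp8 and endog, -0.72 between casp9 and endog, -0.50 between casp8 and casp9, and between -0.33 and 0.44 for the other 7 pairs. The apoptosome partners apaf1 and casp9 had r = 0.44. After the group means were taken off, r was -0.38 between casp8 and endog, -0.86 between casp9 and endog, 0.21 between casp8 and casp9 and -0.06 between apaf1 and casp9. The sign thus changed for these pairs other than casp9 and endog, although 0.21 and -0.06 are too near 0 to give a sign. Among the pairs not yet given, casp8 with apaf1 was at -0.33 over the 12 libraries and -0.64 within groups. For casp8 with dffa the values were 0.35 and -0.62. The rest were between -0.10 and 0.29 within groups. These values share library, depth and treatment, and are given as descriptions.

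In the reference gene table (assembly GRCz12tu, another build than that of the counts) casp9 and dffa overlapped no other gene, casp8 overlapped asic4b, endog overlapped med27, and apaf1 overlapped 5 genes, 4 of them with a row in the count table. The strand setting of the counting is not given in the sources used here, so reads in shared stretches cannot be assigned to 1 gene. The asic4b row had 4 to 18 counts per library and was not called with CPT. The Mediator subunit gene med27 fell with CPT, with a log2 fold change of -1.76 in mutants and -2.40 in wild-type embryos, the opposite direction to endog. Pearson's r between endog and med27 was -0.91 over the 12 libraries. The opposite directions do not show whether med27 reads entered the endog row, which was not tested. Of the genes that overlap apaf1, the chaperone gene dnajb9b rose with CPT by 0.99 in mutants and 0.81 in wild-type embryos, and mybpc1 had 12 to 34 counts per library and was not called. The other 2, spic and avpr2l, had at most 12 counts in a library and were not tested. Pearson's r with apaf1 over the 12 libraries lay between -0.53 (mybpc1) and -0.05 (spic) for these 4 genes. Whether reads of an overlapping gene entered the apaf1 row was not tested. The lower apaf1 count of mutant CPT embryos carries the same limit.

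The rest of the pathway, in 6 lists by role, had 40 tested genes. CPT called 19 of them in mutants (10 higher, 9 lower) and 24 in wild-type embryos (11 higher, 13 lower). That is 47.5% in mutants, below the background of 60.2%, and 60% in wild-type embryos, near the background of 60.8%. With library totals the wild-type split was 5 higher and 18 lower. Of 14 listed death receptors and ligands, 7 were tested, and tnfrsf1a, a receptor of tumour necrosis factor, rose by 1.01 in mutants and 0.64 in wild-type embryos (log2). The ligand gene tnfsf10 (TRAIL) was at -0.05 in mutants and fell in wild-type embryos (-0.32), a call that was lost without wild-type DMSO library 2 or 3, any of the 3 wild-type CPT libraries, or mutant CPT library 3. The list's median log2 fold change was -0.05 in mutants and -0.02 in wild-type embryos. It leaves out fas and tnfrsf10a, which had no row. It also leaves out faslg and tnfa, with 6 and 4 counts over all 12 libraries.

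Of the adaptors and regulators, 4 of 12 were tested. Among the rest, fadd and ripk1 had no row, and tradd had 5 counts over all 12 libraries. cradd, which links caspase-2 to its activating platform, fell in mutants (log2 fold change -1.38, adjusted p = 0.00694) and in wild-type embryos (-2.40, adjusted p = 4.19e-05). Its counts were low, 7 to 12 per library in mutant CPT and 22 to 32 in mutant DMSO. In wild-type embryos they were 4 to 14 with CPT and 35 to 52 with DMSO, so the size of the fall is imprecise. casp2 itself fell in mutants (-0.47, adjusted p = 0.00483) and in wild-type embryos (-0.89, adjusted p = 7.79e-06). ripk1l rose by 0.54 in mutants and 0.40 in wild-type embryos, and the inflammasome adaptor pycard was at 0.03 in mutants and fell in wild-type embryos (-0.32). The wild-type call of pycard was lost without wild-type DMSO library 3 or wild-type CPT library 2. That of ripk1l was lost with library totals (0.16), without any of the 3 wild-type DMSO libraries, and without wild-type CPT library 1 or 2, and its mutant call was lost without mutant DMSO library 3. The median of this list was 0.04 in mutants and -0.31 in wild-type embryos.

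Of the other caspases, 7 of 19 entries were tested. The inflammatory caspase caspa rose by 0.59 in mutants and 0.63 in wild-type embryos. The executioner casp3b was at 0.19 in mutants, not called, and rose by 0.49 in wild-type embryos (adjusted p = 0.018). The wild-type call was lost with library totals (0.25), and without wild-type DMSO library 3 or wild-type CPT library 2. The row of casp3a held 8 counts over all 12 libraries and was not tested. The list's median was 0.19 in mutants and 0.20 in wild-type embryos, with 1 higher and 1 lower in mutants and 3 higher and 1 lower in wild-type embryos.

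Of the mitochondrial death proteins, 5 of 10 were tested, with 3 higher and 0 lower in mutants and 2 higher and 1 lower in wild-type embryos (medians 0.41 and 0.23). The cytochrome c gene cycsb, whose product nucleates the apoptosome, rose by 0.74 in mutants and 0.66 in wild-type embryos. aifm2 rose by 0.41 and 0.42, although the wild-type call was lost with library totals (0.19) and the mutant call without mutant CPT library 1. diablob rose by 0.58 in mutants and was at 0.23 in wild-type embryos, and diabloa was at 0.13 in mutants and fell in wild-type embryos (-0.50), a call lost without wild-type DMSO library 3 or wild-type CPT library 1. In mammals Diablo proteins relieve caspases from their inhibitors. Of the listed inhibitor of apoptosis proteins 2 of 6 were tested, and xiap, with 2 counts over all 12 libraries, was not. The gene birc5a (survivin) rose by 0.64 in mutants and was at 0.29 in wild-type embryos, and birc2 was at -0.08 and 0.18, not called.

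Nucleases and caspase substrates went both ways, with 3 higher and 7 lower of 15 tested in mutants and 4 higher and 8 lower in wild-type embryos (medians -0.15 and -0.29). The kinase gene rock1, whose product in mammals drives membrane blebbing once caspases cut it, fell in mutants (-1.72, adjusted p = 1.33e-09) and in wild-type embryos (-1.79, adjusted p = 6.79e-10). The kinase gene pak2a fell too (-0.40 in mutants and -0.55 in wild-type embryos). The channel gene panx1a, whose mammalian counterpart is opened by caspases, rose by 0.64 in mutants and 0.73 in wild-type embryos, and the kinase gene stk3 rose by 0.66 and 0.75.

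**Figure D5:**
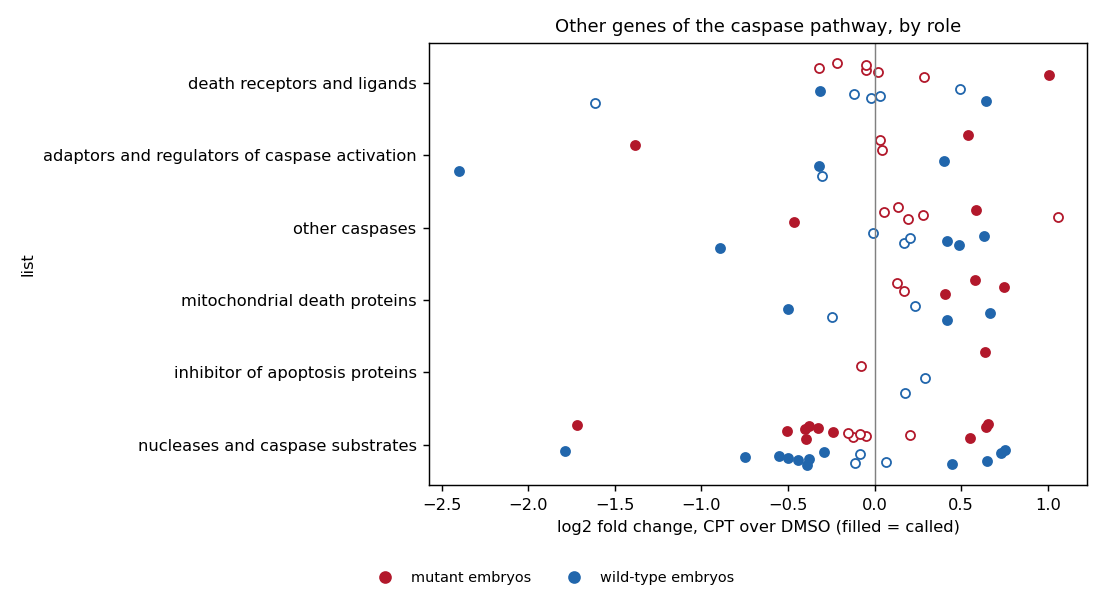
Log2 fold change of CPT over DMSO of the 40 other tested pathway genes, by role, in mutants (red) and wild-type embryos (blue); each point is 1 gene, and filled points were called. The lowest value is -2.40 (cradd in wild-type embryos, with 4 to 14 counts per CPT library), and the highest called value is 1.01 (tnfrsf1a in mutants).

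Between genotypes, edgeR called 0 of these 40 genes with DMSO, with CPT or for the interaction. At an unadjusted p under 0.05 it passed 3 with DMSO (7.5%, against 11.8% of tested genes), 8 with CPT (20%, against 19%) and 4 for the interaction (10%, against 15.1%). limma-voom called 0 in each, and DESeq2 called pycard with DMSO and birc2 with CPT, both lower in mutants, and 0 for the interaction. With library totals 6 were called with CPT, all higher in mutants, where that scaling called 1195 of all 11866 genes, 91.0% of them higher.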

How the data were processed

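Per the labels' protocols, poly-A RNA (RIN 8 or above) was read on an Ion Proton sequencer. The deposited table holds raw read counts per gene symbol, not normalised by the authors. The build danRer11 and the tools HTSeq 0.9.1, Picard 2.5.0, STAR 2.7, Trim Galore 0.4.4 and Bowtie2 are named, per the submitters' processing notes. The sources used here give no annotation, strand setting or handling of multiply aligned reads.

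Genes were kept with filterByExpr by group (minimum count 10), scaled with TMM factors and tested in edgeR 4.0.16 (R 4.3.3) with the robust quasi-likelihood model. A single fit held all 12 libraries and a mean for each of the 4 groups, which left 8 residual degrees of freedom. It had no replicate block. The 5 contrasts were CPT against DMSO in each genotype, mutant against wild-type in each treatment, and the interaction. Standard errors are the size of the log2 fold change divided by the root of its F value, with 95% limits from a t distribution. Likeness is Pearson's r of log2 CPM with a prior count of 2. Alternatives used DESeq2 1.42.0, limma-voom 3.58.1, other scalings and filters, a replicate block, 2-group fits and leaving out each library.

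Named genes are the 5 members, the 3 genes most like each, and up to 4 called genes per pathway list and CPT contrast with the smallest p, with bbc3 and mir34 as checks. The members and lists were chosen with earlier results of these data known. Some list entries were matched through synonyms, and entries without a row were not analysed here. Some untested entries are named only as gaps. The values of 1 called list gene are not reported here. Every pair of libraries within a group had a chi-square of at least 7.64 per degree of freedom, above sampling noise, so none were merged. The highest values, 65.6 and 38.0, were those of wild-type CPT library 3 with libraries 1 and 2 of its group. All other pairs were at 23.9 or less.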

Additional observations from a re-analysis of the deposited data

How the results depend on the processing

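In the CPT contrasts, the 3 members called in each genotype stayed called in all alternatives, except casp9 in wild-type embryos without wild-type DMSO library 3. Library totals in place of TMM factors turned values that were not called: apaf1 (-0.071) and dffa (-0.21) in wild-type CPT against DMSO, and endog (0.041) and dffa (0.092) in mutant against wild-type CPT. Leaving out 1 library turned dffa in wild-type CPT against DMSO (range -0.027 to 0.14) and apaf1 in mutant against wild-type DMSO (range -0.064 to 0.059). The members called in mutant against wild-type CPT were 2 with library totals, and 0 to 2 without 1 library. For the interaction they were 2 with DESeq2, and 0 to 2 without 1 library.

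Over all genes, mutant against wild-type DMSO gave 71 calls, 186 with DESeq2 and 24 to 196 without 1 library. Mutant against wild-type CPT gave 390 calls, 691 with DESeq2, 1195 with library totals, 193 with only the 2 groups in the fit and 65 to 1045 without 1 library. The interaction gave 19 calls, 343 with DESeq2, 7 with library totals, 35 with no low-count filter and 0 to 504 without 1 library. The cause was not tested. With library totals the share of higher genes among calls was 29.7% instead of 47.8% in wild-type CPT against DMSO (median log2 fold change -0.23), 91.0% instead of 34.4% in mutant against wild-type CPT and 85.7% instead of 15.8% in the interaction. With DESeq2 it was 44.1% instead of 32.4% in mutant against wild-type DMSO.

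With the replicate number as a block the calls were 7187 for CPT against DMSO in mutants, 7256 in wild-type embryos, 84 for mutant against wild-type DMSO, 475 for mutant against wild-type CPT and 25 for the interaction, and no member's call changed. Same-numbered libraries of different groups had correlations of their deviations from the group means between -0.16 and 0.23, with 3 of 18 pairs over 0.1. Differently numbered pairs ran from -0.17 to 0.19, and 6 of 12 libraries correlated best with their own number. With so few libraries per group, these values do not settle whether the numbers pair the samples. Among the members, counting depth limits casp9 most, at 32 to 192 counts per library.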
